A study of Mus musculus with 5 samples.

Results

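The genes described here make and load the peptides that MHC class I molecules show at the cell surface. They were named by symbol: the inducible proteasome subunits Psmb8, Psmb9 and Psmb10, the peptide transporter subunits Tap1 and Tap2, the loading factor Tapbp, the class I light chain B2m, the class I heavy chains H2-K1 and H2-D1, and Nlrc5, the transcriptional activator of the class I genes. Of these 10 genes, 8 had at least 1 probe set that the platform annotation pairs with a single gene, 26 probe sets in all. The whole array had 21640 such probe sets, for 19937 genes. H2-K1 and H2-D1 had none, because both probe sets that list them list 3 symbols each. All 8 measured genes passed the filter on low values and were among the 14979 genes tested.

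Expression was measured on 5 whole-transcript arrays of MLE-15 cells, a mouse lung epithelial line derived from tumours of mice that made SV40 large tumour antigen from the promoter of human surfactant protein C. One group of 3 cultures received a lentivirus with an shRNA against Grhl2, a Grainyhead-like transcription factor of epithelia, and the other, of 2 cultures, the same kind of virus with a non-targeting shRNA. Both groups therefore carried the tumour antigen, the viral GFP marker and puromycin resistance. In both, infection took 16 h at a multiplicity of 50 with polybrene at 5 ug/ml, and selection 6 days with puromycin at 5 ug/ml. All cultures were of this 1 line, and 1 hairpin against Grhl2 is named. The sample titles and doses do not say whether each culture was transduced separately. The study's question was which genes of lung epithelium depend on this factor.

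Proteins are cut to peptides by the proteasome, whose standard catalytic subunits are replaced by Psmb8, Psmb9 and Psmb10 in cells exposed to interferon. The peptides enter the endoplasmic reticulum through the Tap1 and Tap2 transporter, where tapasin, the product of Tapbp, helps them onto a heavy chain bound to beta-2 microglobulin. Interferon acts on these genes through STAT and IRF factors and through Nlrc5, and alveolar epithelial cells are known to present antigen on class I.

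The start regions of the genes the results turn on show which regulatory letters they share. Sequences are RefSeq's for build GRCm38.p6, and 8 of the 10 genes had a window of 250 bases before to 50 after a transcript start. Each is given in the direction named, 5′ to 3′. Capitals mark matches, on either strand, to the interferon-stimulated response element (GAAA, NN and GAAA in a row), the STAT site TTCNNNGAA, the NF-kappaB consensus, TGACGC and CCAAT, the last of which belongs with TGACGC to the class I promoter module, or the Grainyhead letters AACNNGTT. The first is the 225-base gap between the divergent starts of Psmb9 and Tap1, read towards Tap1 (chr17:34187331-34187555, plus strand). It is shown because the pair lies head to head on one short stretch.
Psmb9-Tap1: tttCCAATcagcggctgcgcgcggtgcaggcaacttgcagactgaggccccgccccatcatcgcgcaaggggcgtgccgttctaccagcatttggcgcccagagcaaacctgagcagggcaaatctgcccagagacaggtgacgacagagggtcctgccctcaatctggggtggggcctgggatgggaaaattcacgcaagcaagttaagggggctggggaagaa
The next is the 180 bases before the start of Psmb8, the gene with the largest difference (chr17:34198015-34198194, plus strand).
Psmb8: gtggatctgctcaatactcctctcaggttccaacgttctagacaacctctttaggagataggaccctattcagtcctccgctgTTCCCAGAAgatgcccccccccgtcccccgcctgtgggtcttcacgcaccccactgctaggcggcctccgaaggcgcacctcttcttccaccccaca
Then comes the same stretch of B2m (chr2:122147507-122147686, plus strand), which holds an interferon element and an NF-kappaB match side by side.
B2m: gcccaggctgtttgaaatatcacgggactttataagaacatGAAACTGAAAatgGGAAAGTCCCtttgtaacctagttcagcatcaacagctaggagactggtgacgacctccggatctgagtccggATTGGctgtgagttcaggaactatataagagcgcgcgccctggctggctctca
The last pair, from the heavy chain genes that the arrays could not separate, shows how alike they are (H2-K1, chr17:34000348-34000527, minus strand, and H2-D1, chr17:35262914-35263093, plus strand).
H2-K1: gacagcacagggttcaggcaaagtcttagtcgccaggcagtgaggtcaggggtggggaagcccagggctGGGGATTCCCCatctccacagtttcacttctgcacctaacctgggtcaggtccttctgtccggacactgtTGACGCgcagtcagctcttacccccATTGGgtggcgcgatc
H2-D1: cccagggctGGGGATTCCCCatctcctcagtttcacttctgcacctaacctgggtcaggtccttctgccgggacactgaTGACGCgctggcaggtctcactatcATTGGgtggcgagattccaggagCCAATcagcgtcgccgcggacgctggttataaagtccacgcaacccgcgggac

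Across the aligned part of the 2 heavy chain windows, 211 of 239 bases were identical, or 88.3%. Tap2 and Nlrc5 had no window and were not searched. Among the other members, the exact letters set for the interferon element were found in the B2m window alone, against 3.44% of all 32851 windows. Variants of these letters were not searched for, so the other windows, those of H2-K1 and H2-D1 included, may hold such an element. TTCNNNGAA was found in the Psmb8 window alone (8.3% of all windows) and TGACGC in H2-K1 and H2-D1 (7.4%). The NF-kappaB consensus matched in B2m, H2-K1 and H2-D1 (8.46%), with overlapping matches in both heavy chain genes. CCAAT lay in all member windows except those of Psmb8 and Psmb10, against 37.4% of all windows. AACNNGTT was in none of the members' windows, against 4.2% of all windows. A match is a string of letters and not a measured binding site.

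The gene targeted by the shRNA (Grhl2, 10423770) had 7.43, 7.43 and 7.60 in the knockdown and 7.77 and 7.68 in the control, on the log2 scale of all values here. Every knockdown array lay below both controls, and the log2 fold change of -0.24 did not pass (limma adjusted p = 0.082). It did pass without knockdown replicate 3 (-0.29, limma adjusted p = 0.047), the array with the highest level of its group.

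Of the 8 genes tested, 1 rose in the Grhl2 shRNA cells, Psmb8, and none fell. Among all genes tested, 2.86% passed the same threshold upward (limma, p adjusted by Benjamini-Hochberg across the whole table, under 0.05) and 3.52% downward, 6.38% in all. A further 5 members, Psmb9, Psmb10, Tap1, Tap2 and B2m, had all 3 knockdown values above both control values but did not pass. With Psmb8 that makes 6 of 8 genes whose groups did not overlap, all upward, where 21.0% of all genes had their knockdown values above and 20.5% below. Tapbp and the brightest Nlrc5 probe set overlapped between groups. The median log2 fold change (knockdown minus control) of the 8 genes was 0.10, beside 0.0020 over all genes tested. The fold change was above 0 in 7 of the 8, against 50.9% of all genes. In bulk RNA, a change in the share of expressing cells and a change in RNA per cell cannot be told apart.

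**Figure D1:**
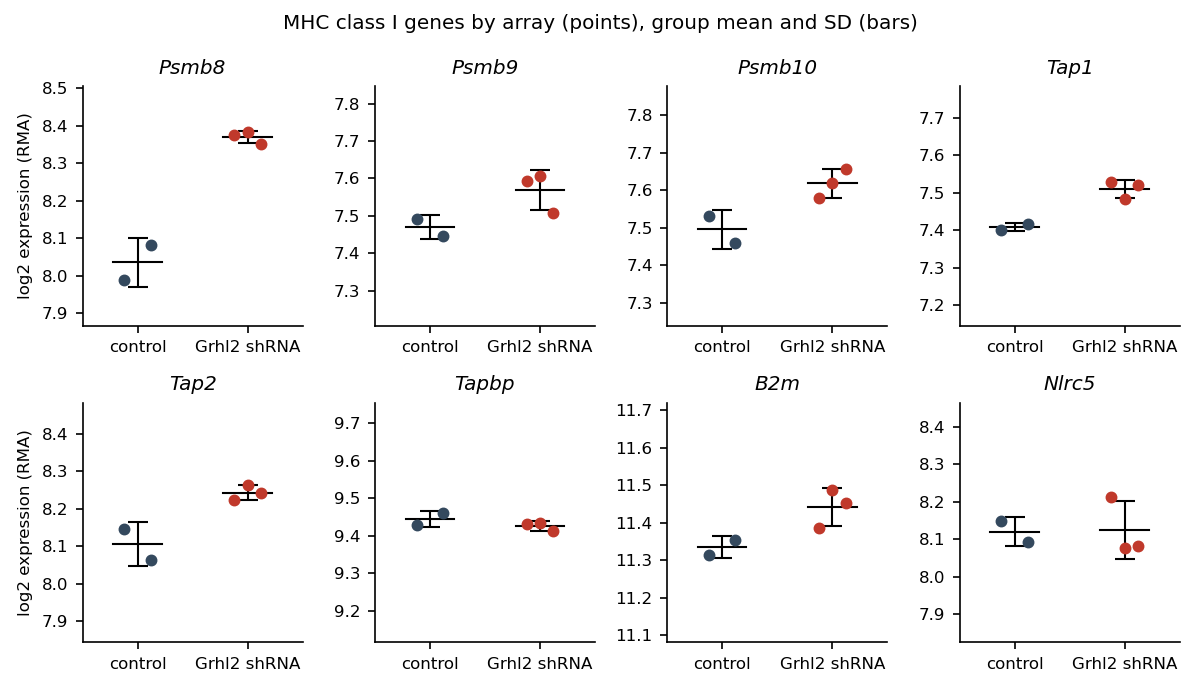
Log2 expression of the 8 measured MHC class I genes (vertical axis, RMA values, the same span in every panel) in control and Grhl2 shRNA arrays; points are arrays, bars the group mean and SD. Psmb8 shows the widest gap, with knockdown arrays at 8.35 to 8.38 and controls at 7.99 and 8.08, while Tapbp and Nlrc5 overlap.

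Psmb8 encodes the inducible chymotrypsin-like subunit of the proteasome (probe set 10444258). Its log2 values were 8.38, 8.38 and 8.35 in the knockdown arrays and 7.99 and 8.08 in the controls. The 3 knockdown arrays lay close together and clear of both controls. The means were 8.37 ± 0.016 (SD, n = 3) and 8.04 ± 0.065 (SD, n = 2). P-values measure the spread between these cultures of 1 line. The log2 fold change was 0.33 (SE 0.045, 95% confidence interval 0.23 to 0.44), a 1.26-fold rise, with a limma adjusted p of 0.013. Without control replicate 1 the limma adjusted p was 0.082, and without control replicate 2 it was 0.055, with log2 fold changes of 0.29 and 0.38. The call also ended with each gene's own variance alone (limma without moderation, adjusted p = 0.116), with the replicate number as a block (0.061) and with all probe sets tested together (0.15).

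Psmb9 (10450145) and Psmb10 (10581378), the other inducible catalytic subunits, had smaller differences. Psmb9 had log2 values of 7.59, 7.61 and 7.51 in the knockdown and 7.49 and 7.45 in the control. Knockdown replicate 3 lay just above the higher control. The log2 fold change was 0.10 (SE 0.048, 95% confidence interval -0.014 to 0.21, limma adjusted p = 0.27). Psmb10 had knockdown values of 7.58, 7.62 and 7.66 against control values of 7.53 and 7.46. Here, too, the groups were separate, by 0.12 in the mean (SE 0.047, 95% confidence interval 0.012 to 0.23, limma adjusted p = 0.17). Psmb10 lies on chromosome 8, outside the MHC.

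Each inducible subunit takes the place of a standard one, so the log2 ratio of the pair was followed within each array. The change of such a ratio shows unequal change only. Psmb8 over Psmb5 was -3.30, -3.22 and -3.21 in the knockdown and -3.72 and -3.52 in the control, all knockdown values being higher. The mean difference was 0.37, with Psmb5 itself at a log2 fold change of -0.038 (limma adjusted p = 0.73). An exact permutation test, two-sided, gave p = 0.2, the smallest that the 10 splits of 5 arrays allow, and 0.3 after adjustment over the 3 pairs. With control replicate 1 left out it was 0.27, and with control replicate 2 left out 0.47. Psmb9 over Psmb6 had a mean difference of -0.037, with Psmb6 at a log2 fold change of 0.14 (limma adjusted p = 0.14). All 3 knockdown ratios, at -3.10, -3.11 and -3.11, lay below the control ratios of -3.05 and -3.09 (exact p = 0.2, adjusted 0.3). The size of this difference rested on the controls: it was -0.016 when control replicate 1 was left out and -0.057 when replicate 2 was. Psmb10 over Psmb7 differed by 0.072 in the mean, and its groups overlapped (exact p = 0.4). It was 0.107 without knockdown replicate 1 and 0.045 without knockdown replicate 3. None of the 3 ratios could reach a p of 0.05 in this design.

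Both transporter genes were higher in every knockdown array than in either control, without passing. Tap1 (10444244), the subunit whose gene shares its start region with Psmb9, had log2 values of 7.53, 7.48 and 7.52 in the knockdown and 7.40 and 7.42 in the control. Knockdown and control did not overlap. The log2 fold change was 0.10 (SE 0.041, 95% confidence interval 0.0064 to 0.20, limma adjusted p = 0.19). Tap2 (10444268), the partner subunit, had 8.22, 8.26 and 8.24 against 8.15 and 8.06. Its log2 fold change was 0.14 (SE 0.045, 95% confidence interval 0.032 to 0.24), the second largest of the set, with a limma adjusted p of 0.12. Without control replicate 2, the lower control, it was 0.096.

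Tapbp (10444068), which bridges the transporter and the heavy chain, had knockdown values of 9.43, 9.44 and 9.41 and control values of 9.43 and 9.46. The values overlapped, and the log2 fold change of -0.018 had a 95% confidence interval of -0.11 to 0.076 (limma adjusted p = 0.83). A rise as large as that of Psmb8 lies outside this interval. Another 2 probe sets list Tapbp together with Rps3a1, a ribosomal protein gene, and were not assigned to either. One (10421908) had 11.35, 11.37 and 11.40 in the knockdown and 11.16 and 11.18 in the control, and the other (10499121) 10.98, 11.01 and 11.03 against 10.85 and 10.92. Both were higher in every knockdown array, by 0.20 and 0.12, without passing in the fit of all probe sets (limma adjusted p = 0.22 and 0.39).

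**Figure D2:**
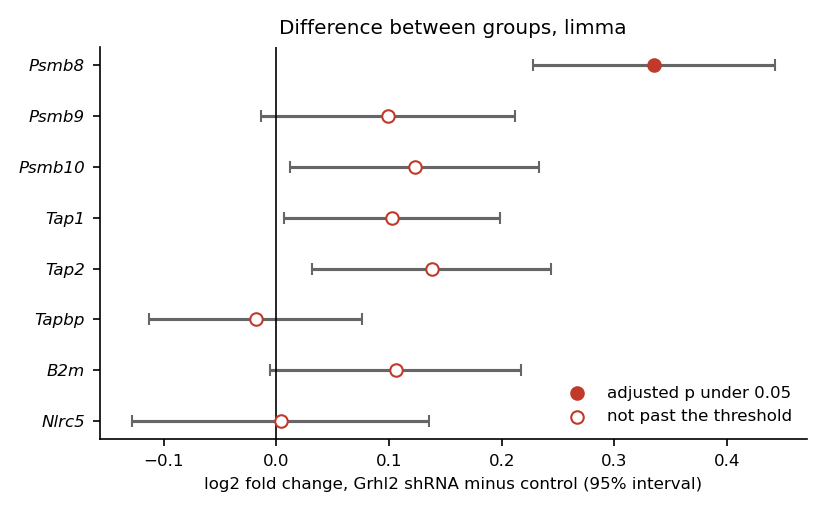
Log2 fold change of each measured gene (horizontal axis, Grhl2 shRNA minus control) with its 95% confidence interval from limma; the filled point passed the adjusted threshold. The point for Psmb8 at 0.33 stands to the right of the other 7, which lie between -0.018 and 0.14.

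B2m (10475414), the light chain common to class I molecules, had log2 values of 11.39, 11.49 and 11.45 in the knockdown and 11.32 and 11.36 in the control. Knockdown replicate 1, the lowest of its group, still lay above the higher control. The log2 fold change was 0.11 (SE 0.047, 95% confidence interval -0.0054 to 0.22, limma adjusted p = 0.24). For the heavy chains, 1 probe set that lists H2-D1, LOC547349 and H2-K1 (10444780) had 10.01, 9.98 and 9.99 in the knockdown and 9.86 and 9.88 in the control. A second, which lists the same 3 symbols (10450075), had 9.63, 9.62 and 9.64 against 9.56 and 9.60. Knockdown values lay above both controls in each, with differences of 0.12 and 0.050. These values belong to no single gene. In a limma fit over all 34760 probe sets, none passed and 4515 had an unadjusted p under 0.05. The 2 shared probe sets had limma adjusted p-values of 0.36 and 0.70 there.

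Nlrc5, which assembles with RFX and NF-Y factors on class I promoters, was read by 19 single-gene probe sets, and they did not give one answer. The brightest (10574100) stood for the gene in the test. It had knockdown values of 8.21, 8.08 and 8.08 and control values of 8.15 and 8.09, with a log2 fold change of 0.0036 (SE 0.056, limma adjusted p = 0.98). This value was -0.041 without knockdown replicate 1, -0.024 without control replicate 2 and -0.0099 with array weights, so it has no settled sign. Of the 19 probe sets, 17 had a log2 fold change above 0, against 51.3% of all single-gene probe sets. Their median was 0.12 and their range -0.16 to 0.35. In 6 of them all knockdown arrays were above both controls, in 1 all were below, and in 12 the groups overlapped, where 18.3% of all such probe sets had the knockdown arrays above. These probe sets read 1 gene on the same 5 arrays and are not replicates of each other.

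When each probe set above the filter was tested on its own, 2 of 16 for Nlrc5 rose and none fell. In that fit 2.59% of 16230 probe sets were called higher. Both calls ended without the filter on low values (limma adjusted p = 0.062 and 0.064). One of the 2 (10574149) had knockdown values of 5.27, 5.37 and 5.33 against 5.09 and 4.97, a log2 fold change of 0.30 (SE 0.054, limma adjusted p = 0.031). The other (10574098) had 5.89, 5.87 and 5.80 against 5.61 and 5.58, a log2 fold change of 0.26 (SE 0.047, limma adjusted p = 0.031). In the opposite direction, 10574153 had 6.23, 6.23 and 6.08 against 6.40 and 6.28, at -0.16 (limma adjusted p = 0.21). With the mean of the 16 probe sets above the filter in place of the brightest, the log2 fold change of Nlrc5 was 0.12 (limma adjusted p = 0.197), which did not pass either. Which parts of the transcript the probe sets read was not used here.

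**Figure D3:**
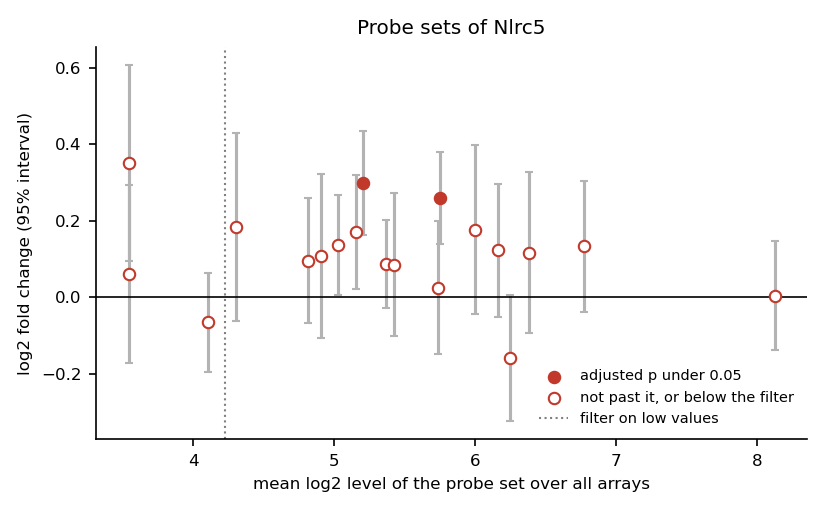
Log2 fold change of each of the 19 Nlrc5 probe sets (vertical axis, Grhl2 shRNA minus control, 95% confidence interval from the fit without a filter) against its mean log2 level over all arrays (horizontal axis). Filled points passed the threshold when each probe set was tested on its own, and the dotted line is the filter at 4.22. The brightest probe set sits at 0.0036, and most of the dimmer ones lie above it.

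By place, 7 of the 10 genes lie on chromosome 17 in the MHC, and Psmb9, Tap1, Psmb8 and Tap2 follow one another there with no other RefSeq gene between them. All 4 had log2 fold changes above 0, from 0.10 to 0.33. The 20 genes beside this run, 10 on either side, include class II genes and Brd2, a chromatin reader gene. Only 9 of the 20 were tested. None passed. None had all knockdown values above the controls and 1 had all below, against 21.0% and 20.5% of all genes. In 2 the log2 fold change was above 0, against 50.9% of all genes, and the median was -0.027. The widest of these values were -0.11 for H2-Ab1 and 0.10 for H2-DMa. Control means of the neighbours were 4.30 for H2-Ab1, 4.38 for Btnl1, 4.7 for H2-Oa, 5.07 for Btnl2 and 5.44 for H2-Eb1. Those of H2-DMa, Col11a2, Rxrb and Brd2 were 6.15, 6.25, 8.57 and 9.51. Control means of the 4 members were 7.41 to 8.11, and the filter stood at 4.22. The levels of members and neighbours were thus not matched. Over the whole stretch from Tapbp to H2-D1, 70 other genes were tested, with a median of -0.012. Of these 5 fell and none rose, where 3.52% of all genes were lower and 2.86% higher. All knockdown arrays lay above the controls in 13 and below in 17, against 21.0% and 20.5% of all genes. The log2 fold change was above 0 in 31, against 50.9% of all genes. The 5 that fell, chosen after their values were seen, were Ager, Ly6g6c, Mpig6b, Skiv2l and Slc44a4. The difference between the members and their neighbours was not tested.

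**Figure D4:**
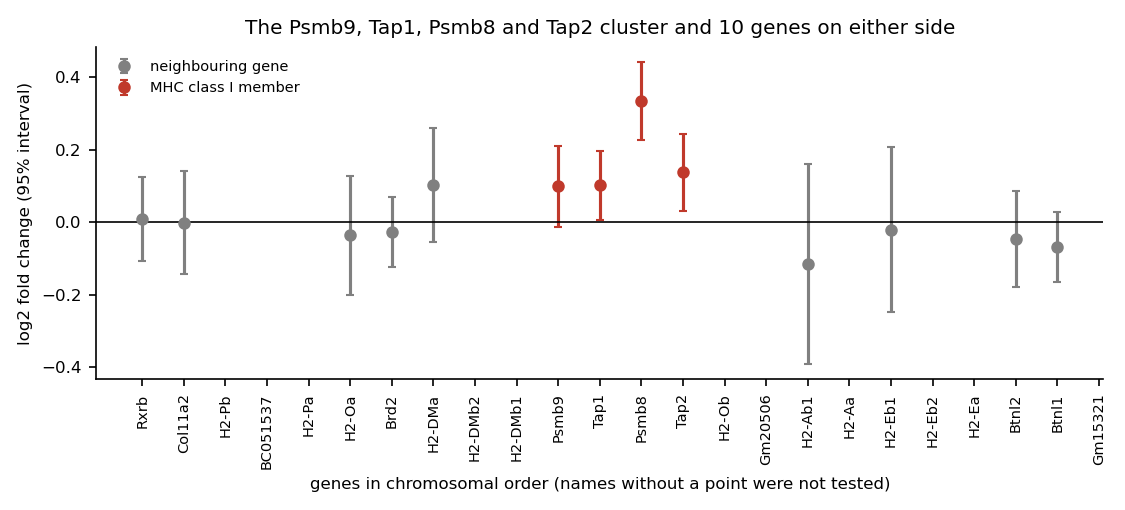
Log2 fold change (vertical axis, Grhl2 shRNA minus control) with 95% confidence interval for Psmb9, Tap1, Psmb8 and Tap2 and for the genes on either side, in chromosomal order along the horizontal axis. The 4 members lie above 0, at 0.10 to 0.33, and the 9 tested neighbours between -0.11 and 0.10.

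Other genes of the pathway were taken by list. The list of the standard proteasome and its activators also holds Psmf1 and Pomp, which are neither. Of its 20 genes, none rose, 1 fell and 19 did not pass, with a median log2 fold change of 0.049. The one that fell was Psma1 (10567072), a structural subunit of the core, from 10.90 ± 0.038 (SD, n = 2) to 10.64 ± 0.031 (SD, n = 3), by 0.26 on the log2 scale (limma adjusted p = 0.023). This call ended without knockdown replicate 1 or 2 or either control (limma adjusted p from 0.059 to 0.131). Psma7 (10490370), another core subunit, had the second largest value, 0.17 (limma adjusted p = 0.093). Psme1 and Psme2, the interferon-inducible activator subunits that cap the proteasome, were chosen after their values were seen. Both had all knockdown arrays above the controls, at 0.16 (limma adjusted p = 0.075 and 0.069). In the whole list 12 of 20 genes were separated upward and 1 downward, against 21.0% and 20.5% of all genes.

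Chaperones and partners of peptide loading did not pass. Of 12 tested, 8 had values below 0 and the median was -0.029. The largest was Sec61b (10411454), a channel subunit of the endoplasmic reticulum, at -0.19 (SE 0.13, limma adjusted p = 0.45). Its controls lay far apart, at 7.77 and 7.33, the groups overlapped, and the gene had 3 probe sets. Hspa5 (10471586), the chaperone BiP, followed at -0.15 (limma adjusted p = 0.17). Of 7 cytosolic peptidases none passed. Blmh (10378802), bleomycin hydrolase, was at 0.13 and Npepps (10390381), a puromycin-sensitive aminopeptidase, at -0.12 (limma adjusted p = 0.13 and 0.36). The median of the peptidases was -0.0037.

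On the list of other class I and class I-like genes, 2 of 12 tested rose and none fell, with a median of 0.081. The list and its median include H2-Ke6, which lies in the MHC but is not a class I gene, at 0.15 (limma adjusted p = 0.083). Mr1 (10358982), which presents vitamin B metabolites to mucosal-associated T cells, went from 6.54 ± 0.086 (SD, n = 2) to 6.86 ± 0.036 (SD, n = 3). Its log2 fold change was 0.32 (SE 0.052, limma adjusted p = 0.021). H2-M3 (10445119), which presents formylated bacterial peptides, went from 6.57 ± 0.037 (SD, n = 2) to 6.81 ± 0.047 (SD, n = 3), by 0.24 (SE 0.047, limma adjusted p = 0.034). Neither call held in every fit that left out 1 array. For Mr1 the limma adjusted p without 1 array ran from 0.054 to 0.127, and for H2-M3 it ended without either control array (0.169 and 0.132) or knockdown replicate 1 or 2 (0.079 and 0.104). Of 28 genes listed, 11 had no single-gene probe set, several of them classical or Qa-region genes. Class II genes did not pass: of 7 tested, the largest values were H2-Ab1 (10444291) at -0.11 and H2-DMa (10444229) at 0.10 (limma adjusted p = 0.62 and 0.41), with a median of 0.041.

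Of 26 regulators of class I transcription, 2 rose, none fell and 24 did not pass, with a median of 0.047. Irf9 (10415319), the DNA-binding part of the type I interferon complex ISGF3, went from 7.63 ± 0.013 (SD, n = 2) to 8.06 ± 0.035 (SD, n = 3). Its log2 fold change was 0.43 (SE 0.043, limma adjusted p = 0.0052), and the limma adjusted p was 0.051 and 0.052 without control replicate 1 and 2. Nfyb (10371307), a subunit of the CCAAT-binding factor NF-Y, rose by 0.24 (SE 0.053, limma adjusted p = 0.049), and this call ended with any 1 array left out (limma adjusted p from 0.062 to 0.225). Of the interferon-gamma-inducible GTPases and chemokines, 2 of 8 rose: Irgm1 (10385500), an immunity-related GTPase, by 0.34, and Gbp3 (10496580), a guanylate-binding protein, by 0.27 (limma adjusted p = 0.021 and 0.027). Their list's median was 0.16, and none fell. Both calls ended without knockdown replicate 2 or 3 or either control (limma adjusted p from 0.053 to 0.125 for Irgm1 and 0.063 to 0.144 for Gbp3).

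Type I interferon-inducible genes had the highest median of the lists, 0.22, with 8 of 27 higher, 1 lower and 18 not past the threshold. The largest rises were Rtp4 (10434778) by 0.78, Oasl2 (10524621) by 0.64, Xaf1 (10378068) by 0.58, Irf7 (10569102) by 0.55, Oas1a (10533256) by 0.54 and Rsad2 (10399710) by 0.43. The limma adjusted p of these 6 genes lay between 0.0048 and 0.018. Among them, Xaf1 alone passed in every fit with 1 array left out. Control replicate 1 was needed for Rtp4, Oasl2, Irf7 and Oas1a, control replicate 2 for Rtp4, Oasl2 and Rsad2, and knockdown replicate 2 for Irf7. The one that fell was Ifit3, an interferon-induced tetratricopeptide repeat protein, by 0.29 (limma adjusted p = 0.040), chosen after its value was seen; it passed in no fit with 1 array left out except that without knockdown replicate 2. Psmb8, at 0.33, stood below these 6. Over the pathway lists together, 14 of 119 genes tested were called higher and 2 lower, where 2.86% and 3.52% of all genes were. The higher ones fell to 2 and 3 without control replicate 1 and 2 and to 6 and 9 without knockdown replicates 2 and 3.

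**Figure D5:**
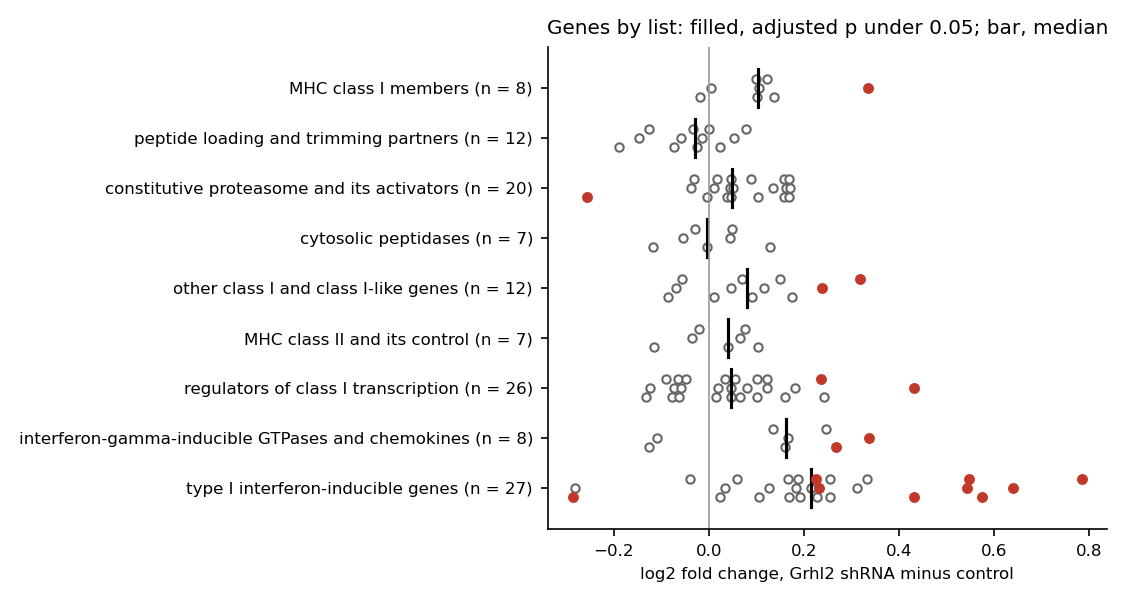
Log2 fold change (horizontal axis, Grhl2 shRNA minus control) of each tested gene by list; filled points passed the limma threshold and bars are list medians. The MHC class I members' median is 0.10, between the standard proteasome list at 0.049 and the type I interferon list at 0.22.

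By distance between profiles over the 5 arrays, each centred on its own mean, the genes outside the lists closest to the mean profile of the 8 members were Rpn2, Psip1, Stk4, Lamb1 and Primpol. Their root-mean-square distances were 0.0065 to 0.0082 on the log2 scale. All 5 had log2 fold changes of 0.099 to 0.12, which follows from how they were chosen, and none passed the threshold.

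Array medians were 5.29 to 5.32. Other cell types were followed by their markers. Of 13 markers of lung epithelium and alveolar type II cells, 12 were above the filter, and Lamp3 was below it. Napsa rose (limma adjusted p = 0.010) and Sftpd and Cldn4 fell (0.021 and 0.045). Without the filter, Napsa passed (0.028) and Sftpd and Cldn4 did not (0.051 and 0.090). The log2 of the list's summed level was 14.16 to 14.23 in the knockdown and 14.21 to 14.24 in the control. Of 13 leukocyte markers measured, 7 were above the filter and none passed the test, while Ptprc, Itgam, Itgax, Cd79a, Adgre1 and Ncr1 lay below it. The log2 of the summed leukocyte marker level was 8.55 to 8.59 in the knockdown and 8.53 to 8.56 in the control. For endothelial markers it was 7.81 to 7.84 against 7.87 to 7.92, with 0 of 5 called. For fibroblast markers it was 8.72 to 8.98 against 8.53 to 8.58, with 1 of 5 higher, Dcn, from 7.30 to 8.01 (limma adjusted p = 0.036, and 0.074 without the filter). The part of these markers in the values above was not tested.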

How the data were processed

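Total RNA (300 ng per sample) was labelled with biotin and hybridised to 1 array per culture. The authors deposited log2 values; the submitters' processing notes name RMA and Affymetrix Expression Console. Software versions and any filter were not given in the sources used here, and the log base was taken from the method and the value range. Probe sets with 1 gene symbol in the platform annotation were kept (21640 of 34760), 21553 of them matched by Entrez ID to the RefSeq table of GRCm38.p6, which changed no symbol. Probe sets with a mean below the 25th percentile (4.22) were left out, and the brightest probe set stood for a gene. All 5 arrays entered 1 two-sided limma fit (version 3.58.1, R 4.3.3; lmFit, eBayes), with a Benjamini-Hochberg adjusted p under 0.05 over 14979 genes. Precision is limited by the number of arrays: a log2 fold change had a median standard error of 0.051. In 10 runs on simulated arrays with 200 changed genes, the test recovered 20.2% of genes changed by 0.25 (log2). It recovered 89.6% of those changed by 0.5. The main fit called 956 genes, more than were changed there, so these shares do not give the recovery in the data.

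The members and lists were chosen with earlier results of these data known. Named were all members and Grhl2, up to 6 called genes per list (or, with under 2 called, the 2 that differed most) and the 5 nearest profiles. Exact permutation tests used SciPy 1.17.1. Alternatives covered the filter, normalization, probe set choice, variance prior, array weights, replicate numbers, each array left out, the threshold and all probe sets together; the test of single probe sets was added after the data were seen.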

Additional observations from a re-analysis of the deposited data

How the results depend on the processing

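Of the 8 members, Psmb9, Psmb10, Tap1, Tap2, Tapbp and B2m kept their direction and stayed short of the threshold in all 16 alternatives; the brightest Nlrc5 probe set, or the mean that replaced it, did not pass in any, while 2 other Nlrc5 probe sets passed when each was tested on its own. Psmb8 kept its direction in all and passed in 11 of 16. The count of members called higher was 0 with no moderation, with the replicate block, with all probe sets tested together and at a threshold of 0.01, and ran from 0 to 1 with single arrays left out. With all 34760 probe sets tested together by limma, none passed and 4515 had an unadjusted p under 0.05. The median of the members ran from 0.091 to 0.11 with arrays left out. Nlrc5 turned to -0.0099 with array weights and to -0.041 and -0.024 with 1 array left out. The Psmb8 over Psmb5 change ran from 0.27 to 0.47, Psmb9 over Psmb6 from -0.057 to -0.016 and Psmb10 over Psmb7 from 0.045 to 0.107.

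Grhl2 passed when the filter stood at the median level, the 50th percentile (-0.24, adjusted p = 0.032), and with a trended robust prior (-0.24, adjusted p = 0.023); with arrays left out it ran from -0.29 to -0.19. Pathway list members called higher numbered 9 with no filter, 26 with the filter at the 50th percentile, 30 with the trended robust prior, 7 with the replicate block and 0 with no moderation or all probe sets together, and 2 to 12 with arrays left out. Those called lower numbered 5 with the trended robust prior, 0 with no filter, no moderation, the replicate block or all probe sets together, and 0 to 1 with arrays left out. Over all genes, 429 were higher and 527 lower, against 177 and 241 with no filter, 785 and 923 at the 50th percentile, 957 and 1077 with the trended robust prior, 5 and 4 with no moderation, and 60 and 112 with the replicate block. Without control replicate 1 they were 45 and 46, without control replicate 2 they were 34 and 33, and without 1 knockdown array 127 to 203 and 162 to 290, so the shares of all genes given beside the members' counts fall with them.

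The replicate numbers form 2 pairs, whose deviations from their group means correlated at 0.057 and 0.019. With 2 controls, the control deviations mirror each other, so these values cannot decide whether the numbers pair the arrays. The main fit did not use the numbers. Under the replicate block the limma adjusted p of Psmb8 was 0.061, at a log2 fold change of 0.34. Fits without a control array leave 1 control, which is assumed to vary like the knockdown group. In the simulated arrays, with 200 changed genes, most changes of 0.25 were missed, and smaller ones were not simulated. The main fit called 956 genes, so the share missed there does not carry over to the data.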
